A study of Mus musculus with 48 samples.

Results

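Wild-type mouse osteoblasts were exposed for 1 h to cytokines that signal through the leukemia inhibitory factor receptor (LIFR), and gene expression was read on bead arrays. The arrays were chosen by sample title: 3 arrays of cells given human oncostatin M (hOSM) and 3 of cells given leukemia inhibitory factor (mLIF) form the 6 ligand arrays, and 3 arrays labelled control at 1 h are set against them. Each ligand array was matched to the control array of the same replicate number. These are 9 of the 48 arrays of the study, whose other arrays hold cells lacking the oncostatin M receptor gene Osmr (Osmr-null), murine oncostatin M (mOSM) and a 6 h time point.

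All 9 arrays hold RNA of Osmr wild-type primary calvarial osteoblasts, which are bone-forming cells, here from the skull vault, on a C57BL/6 background. The cells had been frozen, thawed and grown for 17 days in medium with serum and ascorbate. Both ligands were given at 10 ng/ml, and the labels do not say what the control cells received. The titles and the design text call the LIF mouse, while the treatment protocol calls it human, so its source is not settled here. By the labels replicates 1 and 2 were thawed on the same day and replicate 3 on another, whereas the design text speaks of 3 occasions. Neither says whether the cultures came from separate animals, nor how many mice were pooled, so p-values reflect only how these samples vary, which may be technical.

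Oncostatin M and LIF belong to the cytokine family that uses gp130, encoded by Il6st, as a shared receptor chain. LIFR pairs with gp130, JAK kinases bound to the chains phosphorylate STAT3, and STAT3 dimers enter the nucleus and bind DNA. Among the known STAT3 targets are the SOCS proteins, which bind the receptor or its JAK kinases and shut the signal off. In bone, this cytokine family acts on osteoblasts and osteocytes and changes both bone formation and the factors by which these cells steer osteoclasts. Per the design text, hOSM and LIF reach mouse cells through LIFR alone, and mOSM through LIFR and OSMR.

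Levels are normalized log2 signals, and a difference of 1 is a 2-fold change. The signals are not counts, and the number of arrays limits the precision. Differences are given ± SE from limma's linear model (6 ligand and 3 control arrays unless stated), which carries a term for each culture, that is, for each genotype and replicate number. "Rose" and "fell" mean an adjusted p under 0.05 over the 10739 genes tested. Between 14766 and 16327 probes were detected on the 9 arrays, and any 2 of these arrays correlated with r from 0.955 to 0.989. Measured genes are those with a probe detected on at least 3 of the 48 arrays. The cultures carried bone genes. Of 12 osteoblast genes with a named probe, 10 were measured, and 9 of these were detected on all 9 arrays. The list members Dlx5 and Msx2 were below detection. Col1a1, a chain of bone collagen, had a control mean of 14.2. The label also says osteocyte, and here the osteocyte genes were split. Sost, a defining osteocyte gene, was detected on 0 of 48 arrays and Dmp1 on 0 of these 9, while 5 of the 9 measured osteocyte genes were detected on all 9 arrays, among them Phex (control mean 8.57) and Pdpn (13.2), which other cells also express. Markers of other lineages were present in part. Detected on all 9 arrays were 7 of 10 measured adipocyte markers, 3 of 7 chondrocyte, 4 of 8 macrophage and osteoclast, 1 of 2 endothelial and 1 of 2 muscle markers. In the same order, these lists had 10, 8, 11, 6 and 5 markers with a named probe. Adipoq, an adipocyte hormone, had a control mean of 11.6, the cartilage collagen gene Col2a1 12.4, the macrophage lysozyme gene Lyz2 12.3 and the endothelial receptor gene Tek 8.05. Against these, the adipocyte genes Fabp4 and Cd36 were detected in 0 of 3 controls and the cartilage gene Acan in 1 of 3. The probes of Ptprc, Acp5 and Calcr (macrophage and osteoclast), Col10a1 (cartilage), Pecam1 and Cdh5 (endothelium) and Myod1 and Myog (muscle) were below detection.

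After 1 h, 216 of 10739 genes differed between the ligand and control arrays (2.01%). Of these, 175 rose (1.63%) and 41 fell (0.382%). More than 2-fold differences were found for 110 of the risen and 13 of the fallen genes, and 30 rose more than 4-fold. The rises were led by the protease inhibitor gene Serpina3f, the chemokine genes Ccl2 and Ccl7, the phosphodiesterase gene Pde4b and the feedback inhibitor genes Socs3, Socs1 and Cish. The falls were led by Id1, which encodes an inhibitor of helix-loop-helix transcription factors. The median difference of all genes was −0.01. In 212 of the 216 genes all 6 matched differences had the same sign, as they did in 1191 genes overall (11.1%). By level, the ligand and control levels did not overlap for 170 of the 216, against 358 genes overall (3.33%). In whole cultures a lower level cannot be assigned to fewer cells of a type or to less RNA per cell, since these cannot be told apart.

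By median, the called genes moved the same way in all 3 cultures. They were called on these same cultures, so the medians are only descriptions. The median difference of the 175 risen genes was 1.14, 1.21 and 1.40 in replicates 1, 2 and 3, and that of the 41 fallen genes −0.58, −0.64 and −0.92. Without the culture term the count was 86, with 75 higher and 11 lower, and without control replicate 3 it was 132. Arrays lay on 8 beadchips. With the beadchip as a further term 220 genes passed, 176 higher and 44 lower. The 216 genes were called partly on the hOSM and control arrays used next, so agreement in direction is no separate support. The beadchip that holds 2 hOSM and 2 control arrays gave the same direction for 216 of the 216 genes. The one that holds 1 of each gave it for 204. These differences are not matched by culture. The first beadchip sets hOSM replicates 1 and 3 against control replicates 1 and 2. The other sets hOSM replicate 2 against control replicate 3. The mLIF arrays shared no beadchip with the WT controls at 1 h.

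**Figure D1:**
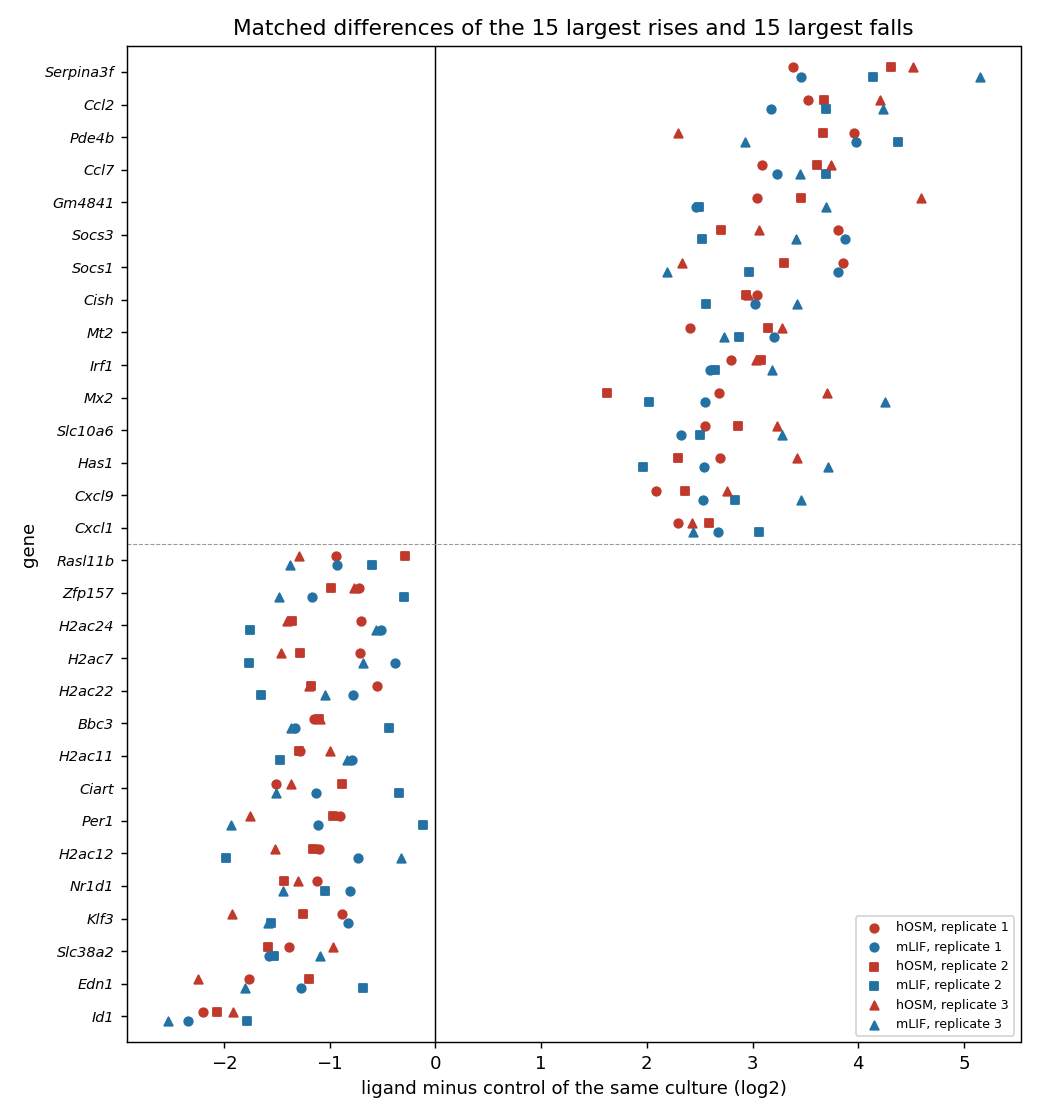
Each point is the log2 level of 1 ligand array minus that of the control array of the same culture, for the 15 largest rises (above the dashed line) and the 15 largest falls. Colours mark the ligand and symbols the replicate. All 6 points of each gene lie on the same side of 0, by the rule that chose the genes. Id1 lies between −2.53 and −1.78, apart from most other falls.

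The feedback inhibitors of gp130 signalling rose together. Socs3, which binds gp130 and the JAK kinases and ends the signal, was at 10.46, 11.60 and 10.68 in the controls, at 14.26, 14.30 and 13.75 with hOSM and at 14.33, 14.13 and 14.09 with mLIF. The lowest ligand array lay more than 2 log2 units above the highest control, and Socs3 rose by 3.23 ± 0.27 (9.38-fold, adjusted p = 3.6e-10). Socs1, which inhibits the JAK kinases directly, was at 4.68, 5.45 and 6.17 in the controls, with 1 of 3 detected, and between 8.36 and 8.75 in all 6 ligand arrays. It rose by 3.07 ± 0.24 (adjusted p = 1.1e-10). Cish, a SOCS family member that is also a known STAT5 target, was between 8.80 and 9.01 in the controls and between 11.35 and 12.42 with ligand. Its rise was 2.99 ± 0.29 (7.93-fold, adjusted p = 7.3e-09). Differences within a beadchip are not matched by culture. Within the beadchip with 2 arrays of each group the hOSM difference was 2.97 for Socs3, 3.45 for Socs1 and 3.10 for Cish. Within the other it was 3.62, 2.58 and 2.72.

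Of the 20 measured STAT3 targets and feedback inhibitors, 12 rose and 0 fell, and the median difference of the list was 0.75. Over all genes 1.63% rose, 0.382% fell and the median was −0.01, and the counts of the other lists stand against the same shares. Besides the SOCS genes, Bcl3, a cofactor of NF-kappaB, rose by 2.23 ± 0.29 (adjusted p = 3e-06), with 1 of 3 controls detected. The kinase gene Pim3 rose by 1.64 ± 0.20 and Junb, an AP-1 subunit, by 1.56 ± 0.35 (adjusted p = 0.0062). Cebpb, known from bone and fat cell differentiation, rose by 0.76 ± 0.13 (adjusted p = 0.00018; 0.051 without the culture term). Il4ra, a receptor chain for interleukin 4, was above background in 0 of 3 controls and in 5 of 6 ligand arrays. It was at least 1.49-fold higher (adjusted p = 0.042, and 0.18 without the culture term), and it missed the threshold in 14 of the 21 alternatives run. The others that rose were Socs2, Bcl6, Icam1 and Fgl2, by 0.70 to 1.46, and all 4 missed the threshold without the culture term. Without the culture term the list had 6 risen members. Bcl6 also missed the threshold with the beadchip term (0.19).

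Some well-known members of the list did not pass. Stat3 itself had a control maximum of 11.41 and lay between 11.21 and 11.63 with ligand, a difference of 0.29 ± 0.16 (adjusted p = 0.70). Cebpd, a transcription factor gene that STAT3 is known to induce, differed by −0.33 ± 0.14 (adjusted p = 0.48), and its 2 probes had opposite signs, from −0.33 to 0.92. Myc, the growth-promoting transcription factor, narrowly missed the threshold at 1.23 ± 0.34 (adjusted p = 0.051). The kinase gene Pim1 had −0.30 ± 0.25.

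**Figure D2:**
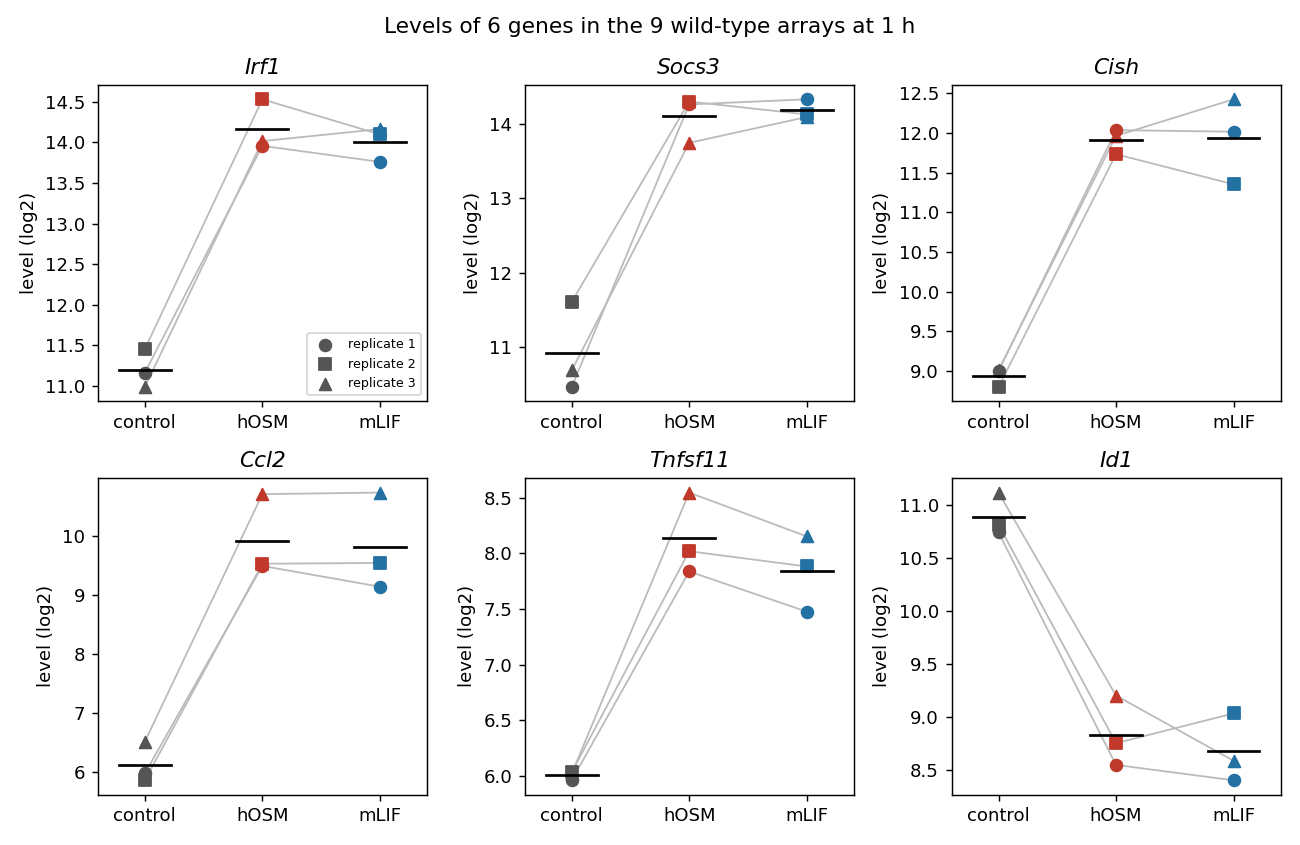
Log2 level of 6 genes in each of the 9 arrays; symbols mark the replicate, thin grey lines join arrays of 1 culture and black bars are group means. Irf1, Socs3, Cish, Ccl2 and Tnfsf11 lay higher in all 6 ligand arrays than in any control, and Id1 lay lower. The vertical axes do not start at 0.

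Irf1, a transcription factor that drives interferon-inducible genes and is a known early STAT target, had the lowest adjusted p of all genes. It was at 11.16, 11.45 and 10.99 in the controls, at 13.96, 14.53 and 14.02 with hOSM and at 13.76, 14.10 and 14.16 with mLIF. The groups were separated by more than 2 log2 units, and the rise was 2.89 ± 0.21 (7.40-fold, adjusted p = 4e-11). Its 5 probes ran from 2.89 to 3.66, and the brightest, used here, gave the lowest value. Of 19 measured interferon response genes 5 rose (1.63% of all genes did) and 0 fell, with a median of 0.69. The risen ones besides Irf1 were the ubiquitin ligase gene Rnf213, detected in 0 of 3 controls and at least 2.47-fold higher (adjusted p = 1.8e-09), the GTPase genes Igtp (2.20 ± 0.35) and Irgm1 (1.22 ± 0.17), and Irf9, which encodes a partner of STAT2 (0.69 ± 0.14). The 3 probes of Irgm1 ran from 1.22 to 3.04. Irf9 missed the threshold without the culture term (adjusted p = 0.24). Mx2, an antiviral GTPase gene outside the list, ran from 7.55 to 10.51 with ligand against 5.82 to 6.25 in the controls, and rose by 2.81 ± 0.43. Gm4841, a predicted interferon-inducible gene, was detected in 0 of 3 controls and in 6 of 6 ligand arrays and was at least 5.36-fold higher. Classical interferon-stimulated genes such as Ifit3 (0.54 ± 0.27), Oasl2 (0.05 ± 0.25), Isg15 (1.02 ± 0.33) and Gbp2 (0.82 ± 0.40) did not pass. The probes of Oasl2 did not agree at 1 h: the brightest gave 0.05, a second 0.22 and the dimmest 1.88.

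Pde4b encodes a phosphodiesterase that degrades cyclic AMP. It was at 6.26, 6.97 and 5.94 in the controls, at 10.22, 10.64 and 8.24 with hOSM and at 10.24, 11.35 and 8.88 with mLIF. Replicate 3 was the lowest in every group, and its ligand arrays still lay above all controls. The rise was 3.53 ± 0.41 (11.6-fold, adjusted p = 3.3e-07), and a second Pde4b probe gave 1.76. Its family member Pde4a rose by 1.86 ± 0.26, while Pde4d had −0.36 ± 0.19 (adjusted p = 0.65).

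The promoters of these leading genes are shown because STAT dimers are known to bind the palindrome TTCNNNGAA. In the RefSeq promoter table (GRCm38.p6, from 250 bases before to 50 after the start) it was found in 9.55% of 27025 genes, and in 8.38% of the 8676 tested genes with a promoter there. A gene with several promoters counted if any of them held the motif. Of the 175 risen genes 136 had a promoter and 39 of these held the motif (28.7%). Among the 41 fallen genes it was 1 of 32 (3.12%). The stricter form TTCCNGGAA, contained in the first, was in 1.63% of tested, 8.82% of risen and 0 of 32 fallen genes. The cyclic AMP response element TGACGTCA was in 3.54% of tested, 2.94% of risen and 6.25% of fallen genes. All 3 motifs read the same on both strands. Of the 15 largest rises, 11 had a promoter and 5 held TTCNNNGAA: Serpina3f, Pde4b, Socs3, Cish and Irf1. A match is a description of these letters, not evidence of binding.

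The sequences below are the 250 bases before the start of Irf1 (chr11:53769764-53770013, plus strand), of Socs3 (chr11:117969367-117969616, minus strand) and of Pde4b (chr4:102569810-102570059, plus strand), and the first 20 transcribed bases of Cish (chr9:107296659-107296678, plus strand), all 5′ to 3′ with TTCNNNGAA in capitals. The motif begins 90 bases before the start in Irf1, 154 in Socs3 and 150 in Pde4b, and Cish has 2 copies. Irf1 and Pde4b have other listed starts whose promoters lack the motif. The start shown for each was picked because its promoter holds it.
Irf1: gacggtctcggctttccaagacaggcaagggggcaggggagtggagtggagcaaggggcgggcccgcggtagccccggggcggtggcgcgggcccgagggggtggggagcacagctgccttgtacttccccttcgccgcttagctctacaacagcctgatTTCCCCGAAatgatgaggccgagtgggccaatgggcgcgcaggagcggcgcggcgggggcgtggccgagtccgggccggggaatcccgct
Socs3: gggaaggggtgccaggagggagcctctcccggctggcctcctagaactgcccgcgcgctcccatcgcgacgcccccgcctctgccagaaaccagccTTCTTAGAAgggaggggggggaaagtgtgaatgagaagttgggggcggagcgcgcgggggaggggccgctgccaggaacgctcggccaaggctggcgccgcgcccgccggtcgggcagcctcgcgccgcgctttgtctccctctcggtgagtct
Pde4b: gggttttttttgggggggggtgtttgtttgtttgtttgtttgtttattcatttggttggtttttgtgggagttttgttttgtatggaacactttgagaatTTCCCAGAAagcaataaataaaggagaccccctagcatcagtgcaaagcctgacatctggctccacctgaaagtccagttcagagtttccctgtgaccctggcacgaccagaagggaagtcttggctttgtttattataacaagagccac
Cish: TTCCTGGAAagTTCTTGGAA

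The early transcription factors and the genes that restrain growth and MAP kinase signals gave a mixed picture. Of 24 measured immediate early transcription factors, 6 rose and 1 fell (1.63% and 0.382% of all genes), with a median of 0.16. Junb, Jun (1.29 ± 0.31), Fosl2 (1.27 ± 0.18), Egr2 (1.23 ± 0.23), Klf5 (1.14 ± 0.27) and Klf6 (0.52 ± 0.12) rose, and Fosb fell (−0.80 ± 0.22, adjusted p = 0.044). The Fosl2 probes did not agree, ranging from −0.21 to 1.27. Fos was already at 10.97 to 12.89 in the controls and at 11.96 to 13.91 with ligand, and its difference of 1.21 ± 0.48 did not pass (adjusted p = 0.35). Egr1 was near 14 on every array, between 13.83 and 14.29, with a difference of 0.16 ± 0.26. Levels this high lie near the top of those seen here, such as Sparc at 14.64 to 14.80. How well changes are read there was not tested. Jun missed the threshold without the culture term (adjusted p = 1.00) and with the beadchip term (0.12), and Fosl2 and Klf5 did so without the culture term (0.14 and 1.00). Fosb did so under both (0.19 in each), and Klf6 with the beadchip term (0.13).

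Of 13 mRNA decay and antiproliferative genes 5 rose and 2 fell, with a median of 0.52. All 3 Gadd45 genes, which encode growth arrest and stress proteins, rose: Gadd45a by 1.62 ± 0.30, Gadd45g by 1.46 ± 0.13 and Gadd45b by 1.31 ± 0.22. A second probe of each gave 2.01, 2.12 and 1.01 in the same order. Gadd45g was the most even, at 12.11, 12.61 and 12.56 in the controls and between 13.69 and 14.13 with ligand (adjusted p = 1.7e-09). Gadd45a and Gadd45b did not pass without the culture term (0.15 and 0.19). Zfp36, which binds AU-rich elements and promotes decay of cytokine mRNAs, rose by 1.92 ± 0.40 and its relative Zfp36l1 by 0.79 ± 0.14. The antiproliferative genes Tob1 and Tob2 fell, by −0.51 ± 0.14 and −0.63 ± 0.16, and missed the threshold without the culture term (1.00 and 0.83). Tob1 also missed it with the beadchip term (0.058). Of 11 MAPK feedback genes, the phosphatase genes Dusp5 (1.35 ± 0.23) and Dusp6 (0.95 ± 0.24) rose and 0 fell, and Dusp6 missed without the culture term (0.60) and with the beadchip term (0.082). Of 10 NF-kappaB genes only Bcl3 and Nfkbiz, which encode atypical nuclear inhibitor proteins, passed. Nfkbiz rose by 1.49 ± 0.23 (adjusted p = 3.7e-05, or 0.056 without the culture term), and Nfkbia, the classical inhibitor, had −0.28 ± 0.14.

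The chemokine genes Ccl2, Ccl7, Cxcl9 and Cxcl1 were among the 15 largest rises. Ccl2, which attracts monocytes, was at 5.97, 5.86 and 6.51 in the controls, at 9.50, 9.54 and 10.72 with hOSM and at 9.15, 9.55 and 10.74 with mLIF. Every ligand array was more than 2 log2 units above every control, and the rise was 3.75 ± 0.44 (13.5-fold, adjusted p = 4.5e-07). Ccl7, a neighbouring monocyte chemokine, was at 10.39, 9.79 and 10.32 in the controls and between 13.41 and 14.06 with ligand, a rise of 3.47 ± 0.40 (11.1-fold). Cxcl9, a T cell chemokine, was at 6.24, 7.56 and 6.54 in the controls and at 8.32 to 10.40 with ligand, and rose by 2.67 ± 0.26. Replicate 2 had the highest Cxcl9 level in each of the 3 groups. Cxcl10 was detected in 0 of 3 controls and was at least 4.03-fold higher (adjusted p = 0.0016). Cxcl1, a neutrophil chemokine, rose by 2.58 ± 0.35, from 8.40, 9.11 and 8.89 to between 10.69 and 12.17 (adjusted p = 6.6e-06, and 0.37 without the culture term).

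Over the 16 measured chemokines and inflammatory mediators, 7 rose (1.63% of all genes did) and 0 fell, with a median of 0.57. Il6, itself a gp130 cytokine, was at 5.14, 5.68 and 5.69 in the controls with 1 of 3 detected, and between 7.54 and 8.58 with ligand, a rise of 2.42 ± 0.31 (adjusted p = 2.4e-06). The adhesion molecule gene Icam1 rose by 0.74 ± 0.14. Ptgs2 (0.63 ± 0.32), Ccl5 (0.50 ± 0.28), Lcn2 (0.33 ± 0.30) and Cxcl12 (−0.14 ± 0.17) did not pass. Macrophages also make such chemokines. Of 8 measured macrophage and osteoclast markers, Cd14, a co-receptor for bacterial products, rose (1.26 ± 0.20, adjusted p = 5.4e-05) and 7 did not pass, among them Csf1r (0.12 ± 0.17) and Lyz2 (−0.10 ± 0.21). The mean log2 level of the 8 markers ran from 7.18 to 10.4 in the controls and from 7.46 to 10.3 with ligand. The part of macrophages in these rises was not tested.

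Tnfsf11 encodes RANKL, the cytokine that osteoclast precursors need to mature. It was at 5.96, 6.03 and 6.02 in the controls, at 7.84, 8.02 and 8.54 with hOSM and at 7.48, 7.88 and 8.15 with mLIF. All 6 ligand arrays lay above the narrow control range, and the rise was 1.98 ± 0.25 (3.94-fold, adjusted p = 1.9e-06; 0.33 without the culture term). Its decoy receptor gene Tnfrsf11b, which encodes osteoprotegerin, differed by 0.01 ± 0.23. Of 15 osteoclast-regulating factors 4 rose (Tnfsf11, Il6, Ccl2 and Ccl7) and 0 fell, with a median of 0.01. Csf1, the macrophage growth factor, had 0.22 ± 0.20, and Wnt16, which restrains osteoclasts, 0.01 ± 0.20.

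Among matrix genes, Adamts4, an aggrecan-cleaving protease, was at 8.07, 7.89 and 8.04 in the controls and between 10.20 and 10.83 with ligand. It rose by 2.46 ± 0.22 (5.50-fold, adjusted p = 1.7e-09). Both measured hyaluronan synthase genes rose. Has1 was detected in 0 of 3 controls and was at least 4.53-fold higher (adjusted p = 9.1e-07). Has2 rose by 1.80 ± 0.25, with replicate 2 lowest in every group, and its adjusted p without the culture term was 0.050. These were the 3 of 16 measured genes on the matrix list that rose, with 0 fallen and a median of 0.02. The list holds the hyaluronan synthase genes beside proteases and their inhibitors, and among the latter only Adamts4 rose. Mmp13, the main collagenase of bone, had 0.12 ± 0.44, and Timp1 0.38 ± 0.13.

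The acute phase and complement list had 10 measured genes, of which 3 rose and 0 fell, with a median of 0.33. Serpina3f, a mouse relative of alpha-1-antichymotrypsin, was at 4.97, 4.59 and 4.93 in the controls, where 0 of 3 arrays detected it. It was at 8.35, 8.89 and 9.45 with hOSM and at 8.44, 8.73 and 10.08 with mLIF, at least 10.1-fold higher (4.16 ± 0.46, adjusted p = 1.3e-07). Serpina3 genes are a family of near copies in the mouse, so its probe may read more than 1 of them. The metallothionein genes, whose products bind zinc and copper, rose too. Mt1 went from 12.29, 13.08 and 12.82 to between 14.50 and 14.69 (1.85 ± 0.18), and Mt2 from between 5.28 and 6.06 to between 7.69 and 9.34 (2.94 ± 0.37). Slc10a6, a transporter of steroid sulfates, rose by 2.79 ± 0.25, and a second probe gave 1.52.

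**Figure D3:**
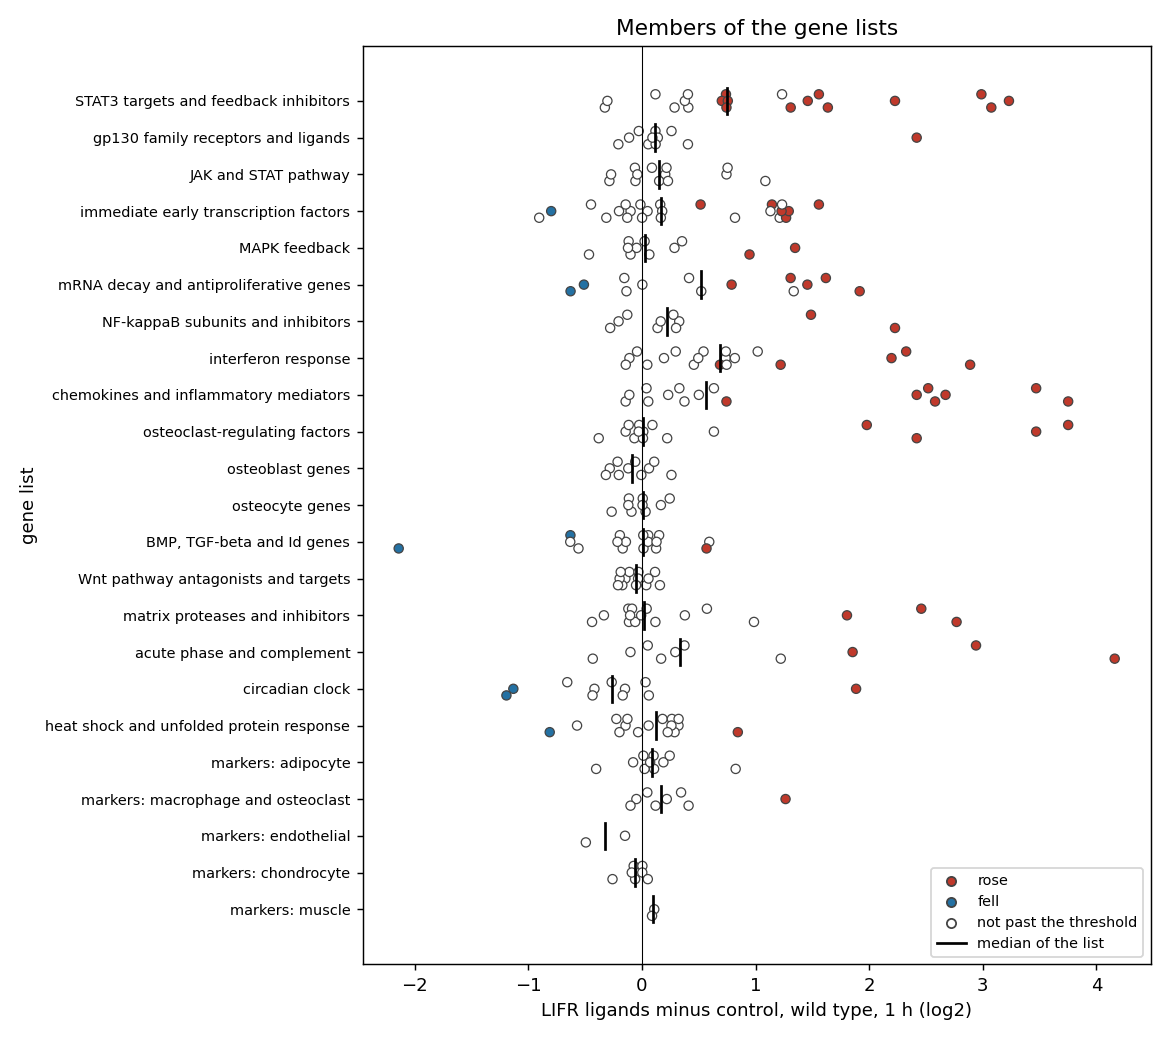
Log2 difference (LIFR ligands minus control, WT, 1 h) of every measured member of the 23 gene lists; filled points passed the threshold (red rose, blue fell), open points did not, and black ticks are list medians. The STAT3, chemokine, osteoclast-regulating, interferon and acute phase lists hold members near 3 or above, and the matrix list reaches 2.77. The osteoblast, osteocyte and Wnt lists stay between −0.32 and 0.26. A gene can stand in several lists, as Ccl2, Ccl7 and Il6 do.

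Fewer genes fell. Id1, a BMP-responsive gene whose product holds back differentiation, was at 10.74, 10.82 and 11.12 in the controls, at 8.55, 8.75 and 9.20 with hOSM and at 8.40, 9.03 and 8.59 with mLIF. The highest ligand array was more than 1 log2 unit below the lowest control, and Id1 fell by 2.14 ± 0.20 on the log2 scale (4.41-fold lower, adjusted p = 3.2e-09). The hOSM difference, not matched by culture, was −1.91 and −2.37 within the beadchips that allow it. Its relative Id3 moved the other way by 0.57 ± 0.15 (adjusted p = 0.033, and 0.53 without the culture term), and Id2 had 0.59 ± 0.34 (adjusted p = 0.74, but 0.020 with the beadchip term). Hey1, a BMP and Notch target, fell (−0.63 ± 0.13, adjusted p = 0.0042) but missed without the culture term (1.00). These were the 3 of 17 BMP, TGF-beta and Id genes that passed, and the list had a median of 0.01.

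Edn1, which encodes the vasoconstrictor endothelin 1, was at 8.23, 6.75 and 7.78 in the controls and between 5.53 and 6.96 with ligand, so the unmatched groups overlapped. Matched by culture it was lower in all 6 pairs, and it fell (−1.49 ± 0.24, adjusted p = 6.7e-05; 1.00 without the culture term). Slc38a2, an amino acid transporter, went from 11.84, 12.04 and 11.40 to between 10.27 and 10.51 (−1.36 ± 0.22, adjusted p = 1e-04), and its 3 probes ran from −1.36 to −0.22. Bbc3, which encodes the death-promoting protein PUMA, was at 9.44, 9.30 and 9.39 in the controls and between 8.02 and 8.86 with ligand (−1.08 ± 0.17), and its 3 probes ran from −1.08 to −0.14. Klf3, a transcriptional repressor (−1.34 ± 0.22), the small GTPase gene Rasl11b (−0.90 ± 0.16) and Zfp157, a zinc finger gene (−0.90 ± 0.22), also fell. Without the culture term these 3 did not pass (adjusted p from 0.36 to 0.63).

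Circadian clock genes were among both the rises and the falls. Bhlhe40, a repressor of the clock, was at 10.29, 11.03 and 10.48 in the controls and between 12.26 and 12.93 with ligand (1.88 ± 0.16, adjusted p = 4.3e-10). Per1 (−1.13 ± 0.28), Nr1d1 (−1.19 ± 0.29) and Ciart (−1.12 ± 0.19), which encode repressors of the clock loop, fell. Without the culture term the adjusted p was 0.058 for Per1, 0.13 for Nr1d1 and 0.20 for Ciart, and with the beadchip term Nr1d1 had 0.16. Of the 11 clock genes on the list, which does not hold Ciart, 1 rose and 2 fell (1.63% and 0.382% of all genes), and the median was −0.27. Per2 (−0.27 ± 0.24), Dbp (−0.17 ± 0.21) and Clock (0.03 ± 0.11) did not pass.

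Replication-dependent histone genes, looked at after their values were seen, leaned downward. Of 39 measured core histone cluster genes 36 had a negative difference (92.3%, against 53.1% of all genes), 8 fell (0.382% of all genes did) and 0 rose, and the median was −0.30. Because the family was picked for these values, the counts support nothing further. The largest falls were H2ac12 (−1.14 ± 0.27), H2ac11 (−1.11 ± 0.28), H2ac22 (−1.07 ± 0.26), H2ac7 (−1.05 ± 0.22) and H2ac24 (−1.05 ± 0.24). These genes are near-identical copies, so a probe may read several of them and each single value is uncertain. Of the 39, 1 fell without the culture term and 6 with the beadchip term. The hOSM difference of H2ac12, not matched by culture, was −1.94 within 1 beadchip and 0.11 within the other.

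Heat shock and unfolded protein genes gave few calls. Of 16, the chaperone gene Dnajb1 rose (0.84 ± 0.12) and Hspa1a fell (−0.81 ± 0.21, adjusted p = 0.025; 0.29 without the culture term and 0.13 with the beadchip term). The list had a median of 0.12.

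Genes of the receptor complex and of bone cell identity gave no call at 1 h. Il6st differed by 0.12 ± 0.23, Lifr by 0.06 ± 0.19 and Osmr by 0.41 ± 0.21 (adjusted p from 0.67 to 0.99), and Il6 was the 1 of 11 gp130 family receptors and ligands that rose. In limma 0 of 13 JAK and STAT pathway genes passed. With the beadchip term 1 did, the phosphatase gene Ptpn1 (adjusted p = 0.017, against 0.12 in the main fit). In the main fit the nearest to the threshold were the phosphatase gene Ptpn2 (1.09 ± 0.32, adjusted p = 0.085) and Stat2 (0.74 ± 0.22, adjusted p = 0.092). Likewise 0 of 10 osteoblast genes passed, with Sp7, a transcription factor needed for osteoblast formation, at −0.28 ± 0.24, alkaline phosphatase gene Alpl at −0.12 ± 0.14 and osteocalcin gene Bglap at −0.32 ± 0.34. Bglap also showed how far the cultures lay apart, at 7.54, 11.75 and 7.46 in the controls. Of 9 measured osteocyte genes 0 passed, and of 13 Wnt pathway genes 0 passed, with medians of 0.01 and −0.05. Among markers of other cells 0 of 10 adipocyte, 0 of 7 chondrocyte, 0 of 2 endothelial and 0 of 2 muscle genes passed.

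Each on its own, hOSM changed 156 genes against control (1.45%), with 131 higher (1.22%) and 25 lower (0.233%), and mLIF 182 (1.69%), with 155 higher (1.44%) and 27 lower (0.251%), on the same control arrays. With the beadchip term mLIF had 92. In the direct comparison of hOSM with mLIF, limma called 0 of 10739 genes, with a lowest adjusted p of 0.43 and 744 genes at an unadjusted p under 0.05, and no other tool was run. The hOSM and mLIF arrays shared no beadchip, so ligand and beadchip differ together in this comparison. With the beadchip term the count was also 0. For the 216 genes of the pooled response, the median size of the difference between the ligands was 0.14. The 95% interval of that difference lay within 1 log2 unit of 0 for 190 of them, while for 26 it reached a 2-fold difference or more. For Socs3 the interval ran from −0.71 to 0.55, for Irf1 from −0.33 to 0.65, for Id1 from −0.31 to 0.63 and for Tnfsf11 from −0.30 to 0.89. For Serpina3f, with −1.27 to 0.90, and Ccl2, with −0.94 to 1.14, a 2-fold difference was within the interval. The largest difference among the 216 was that of Cxcl10, at −1.06 ± 0.57 (hOSM minus mLIF, adjusted p = 0.72), with levels of 6.00, 7.04 and 8.36 with hOSM and 7.31, 7.55 and 9.73 with mLIF. The 216 were called on the mean of both ligands, which favours genes that both moved. Over all genes the largest difference had a size of 2.08, that of Btg2, which was not among the 216. Against control Btg2 had 0.29 with hOSM and 2.38 with mLIF (limma adjusted p of the pooled difference 0.12).

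The same ligands were given for 1 h to Osmr-null cells, which have their own controls. Osmr itself was at 6.40, 6.59 and 7.45 in those controls and at 9.98, 9.51 and 10.20 in the WT controls, and all 6 arrays detected it. Whether its probe lies in the deleted part is not known here. In Osmr-null cells 168 genes passed (1.56%), 141 higher (1.31%) and 27 lower (0.251%). Of the 175 genes that rose in WT, 114 also rose and 0 fell, and 170 had the same direction, with a median of 1.07 against 1.27 in WT. Of the 41 that fell, 14 also fell and 41 had the same direction, with a median of −0.52 against −0.80. The shared calls are 59.3% of the WT list and 76.2% of the Osmr-null list. Socs3 was at 9.85, 10.27 and 10.52 in the Osmr-null controls and between 14.01 and 14.55 with ligand, a rise of 4.06. Irf1 rose by 2.98 and Id1 fell by 1.61 on the log2 scale. In the test of the difference itself, limma called 0 genes (276 had an unadjusted p under 0.05; no other tool was run). Among the 216 genes the 95% interval of that difference lay within 1 log2 unit of 0 for 125 and for 91 it reached a 2-fold difference or more. The largest was that of Ifi205, an interferon-inducible gene, with 1.70 in WT and 0.15 in Osmr-null cells (−1.55 ± 0.58, adjusted p = 1.00).

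**Figure D4:**
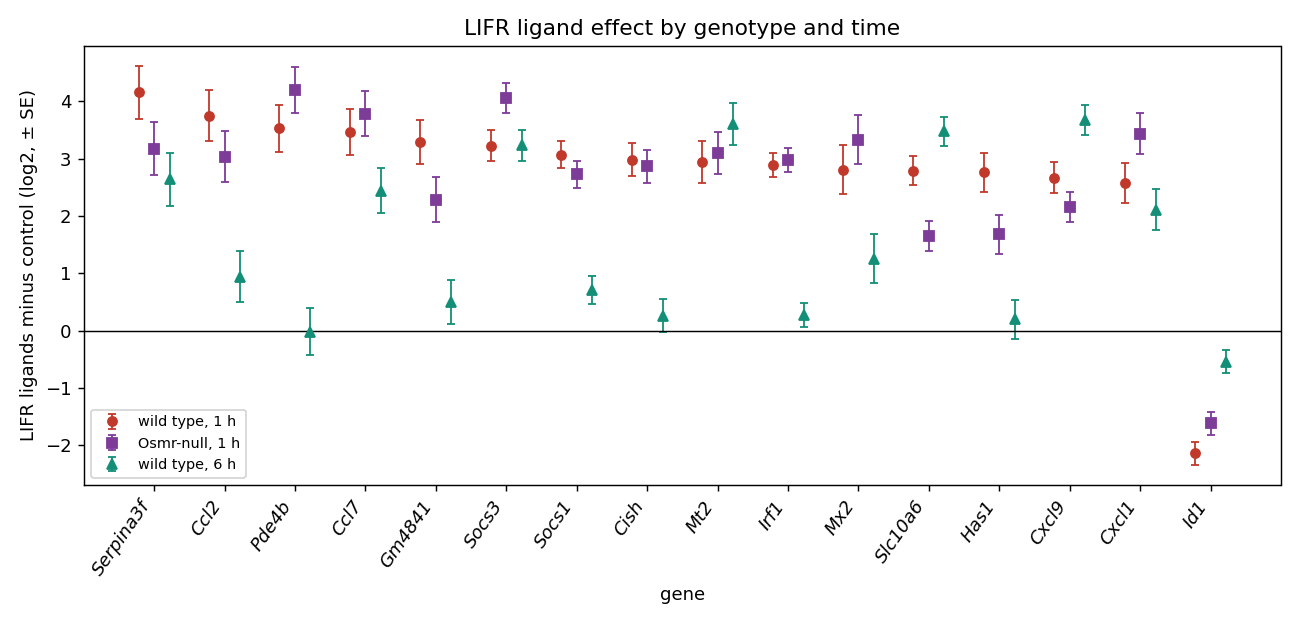
LIFR ligand effect (log2 difference from the control of the same genotype and time, ± SE, 6 ligand and 3 control arrays) of the 15 largest rises and Id1 in WT at 1 h, Osmr-null at 1 h and WT at 6 h. Pde4b, Cish and Irf1 stand near 3 or above at 1 h in both genotypes and near 0 at 6 h, while Socs3, Mt2, Cxcl9 and Slc10a6 are above 3 at 6 h.

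The response differed with time. At 6 h, against their own controls, the same ligands gave 931 calls in WT (8.67%), 448 higher (4.17%) and 483 lower (4.5%), and the difference between the 6 h and 1 h effects passed for 224 genes (2.09%), 87 toward higher values at 6 h (0.81%) and 137 toward lower (1.28%). Of the 175 genes that rose at 1 h, 72 also rose at 6 h, and of the 41 that fell, 6 also fell. The shared calls are 36.1% of the 1 h list and 8.38% of the 6 h list. Among the 216 genes, the time difference passed for 49, of which 39 were lower and 10 higher at 6 h. Without the culture term, 16 of all genes passed in place of 224.

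The genes with the largest time differences mostly had a small effect at 6 h. Pde4b went from an effect of 3.53 to −0.02 (difference −3.55 ± 0.58, adjusted p = 0.00031), with levels of 5.44 to 6.64 on all 6 ligand arrays at 6 h. Irf1 went from 2.89 to 0.27 (−2.61 ± 0.30, adjusted p = 3.9e-06), Cish from 2.99 to 0.27 (−2.72 ± 0.41, adjusted p = 0.00018) and Ccl2 from 3.75 to 0.94 (−2.81 ± 0.63, adjusted p = 0.0097). Gm4841 went from 3.29 to 0.50 (−2.79 ± 0.55, adjusted p = 0.003), with 1 of 6 ligand arrays detected at 6 h. The Id1 effect shrank from −2.14 to −0.54 (1.60 ± 0.28, adjusted p = 0.00084), and here the control mean itself was lower at 6 h, at 9.52 against 10.89. Oasl2, an interferon-stimulated gene, ran the other way, with 0.05 at 1 h and 2.67 at 6 h (2.62 ± 0.36, adjusted p = 3.3e-05). These are values of its brightest probe. A second Oasl2 probe had 0.22 at 1 h and 2.27 at 6 h, whereas the dimmest had 1.88 and 0.13.

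Other genes had a similar effect at both times. Socs3 had 3.23 at each, but its levels were lower at 6 h, with a control mean of 8.81 against 10.92 and means of 12.01 with hOSM and 12.08 with mLIF. Mt1 had 1.85 and 1.84, Bcl3 2.23 and 2.28, and Tnfsf11 1.98 and 2.34, and in none of these 4 did the time difference pass (adjusted p from 0.77 to 1.00). Il6st, not called at 1 h, rose by 1.67 at 6 h, and its time difference passed (1.55 ± 0.32, adjusted p = 0.0043).

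Murine OSM, which per the design text can also use OSMR, was compared with the LIFR ligands on the same cultures at 1 h. Replicates 1 and 2 of mOSM lay on beadchips that also held mLIF arrays, and no mOSM array shared a beadchip with the hOSM arrays. The difference passed for 5 of 10739 genes (0.0466%), 4 higher with mOSM (0.0372%) and 1 lower (0.00931%). Klf2, a transcription factor gene, was at 12.52, 12.51 and 12.21 with mOSM and between 11.17 and 11.72 in the 6 LIFR ligand arrays and 11.28 and 11.48 in the controls, so mOSM stood apart from both (1.03 ± 0.14 above the LIFR ligands, adjusted p = 1e-04). Nfkbiz (1.15 ± 0.23), Ppp1r15a, which counters translational arrest (1.14 ± 0.23), and Trib1, a pseudokinase gene named after its value was seen because its groups overlap (0.99 ± 0.19), were higher with mOSM, each with adjusted p = 0.034. Wfdc18, a secreted protease inhibitor gene, was lower (−0.96 ± 0.19, adjusted p = 0.034). Side by side, and on shared controls, the difference from control was 4.60 with mOSM and 3.53 with the LIFR ligands for Pde4b, 3.46 and 3.23 for Socs3, 2.93 and 2.89 for Irf1, 3.80 and 3.75 for Ccl2, and −2.63 and −2.14 for Id1. The number of calls between mOSM and the LIFR ligands was 0 without the culture term and ran from 0 to 7 when samples were left out.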

How the data were processed

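RNA of mouse calvarial osteoblast cultures was hybridised to Illumina bead arrays, 48 in all, in 16 groups of 3. The main values are the log2 expression values of the authors' deposited normalized table (45281 probes). The deposited bead intensity table (46237 probes after 18 repeated lines were dropped) and its detection p-values, also deposited by the authors, served for the detection filter and the alternatives. Per the submitters' processing notes BeadStudio and limma were used, with versions not given in the sources used here. Recomputing limma's neqc (normexp with control probes, offset 16, then quantile normalization and log2) from the intensities gave values within 0.0338 of the deposited log2 values.

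A probe was kept where its detection p-value was under 0.01 on at least 3 of 48 arrays and the platform annotation gave it 1 symbol (34885 probes do, 18 have several and 10378 none; 34807 were matched by Entrez ID and 0 symbols changed). The brightest such probe stood for its gene, leaving 10739 genes. A linear model (limma 3.58.1, R 4.3.3, lmFit and eBayes) on all 48 arrays had 16 group means and a term for each of 6 cultures (genotype and replicate number), with 28 residual degrees of freedom. P-values were adjusted by the Benjamini-Hochberg method over all genes, with a threshold of 0.05. The culture term was in the fit because the arrays are matched by replicate number. As a check, arrays of the same number deviated together from their group means (r from 0.684 to 0.741, 0.452 to 0.672 and 0.575 to 0.665 for replicates 1, 2 and 3). The mean r between numbers was −0.318. Deviations within a group of 3 arrays sum to 0, so this value is negative whenever the others are positive and is no separate comparison. Where a gene was not above background on any control array, the fold is a lower bound against the higher of the lowest detected signal and the gene's own signal on each control array.

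Genes were named by rule: the 15 largest rises and 15 largest falls among genes past the threshold with 1 sign in all 6 matched differences, 26 fixed genes, up to 4 members per gene list, and up to 6 genes for each of the differences between ligands, times and genotypes. Members of the lists that did not pass, and the histone and Pde4 families, were named after their values were seen. The arrays, gene lists and rules were chosen with earlier results of these data known, so the counts for the lists are descriptions. Alternatives left out the culture term, made it random, added the beadchip, fitted the compared groups alone, changed the normalization, background correction or detection filter, or left out arrays and cultures. The model fit was tested on simulated data. Promoter sequences and starts are RefSeq's for GRCm38.p6, and figures were drawn with matplotlib 3.10.9. Probe positions in the genome were not used here.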

Additional observations from a re-analysis of the deposited data

Results flagged for a closer look

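Of 75 named genes, 2 had a matched difference that stood apart from the others of its gene. For 6 independent values chance sets about 1 in 20 apart. The differences here share control arrays and cultures, so this rate need not hold. For Bbc3, mLIF minus control in replicate 2 was −0.44, against −1.37 to −1.09 for the other 5 differences. For Dusp5, hOSM minus control in replicate 2 was 1.04, against 1.37 to 1.45 for the other 5. Both remained on the side of the other differences.

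The effect of the LIFR ligands in WT cells differed between 6 h and 1 h for 224 genes in limma's test of the difference. Of the named genes, the effect was lower at 6 h for Pde4b (−3.55), Ccl2 (−2.81), Gm4841 (−2.79), Cish (−2.72) and Irf1 (−2.61) and higher for Oasl2 (2.62, from the brightest of its 3 probes, which do not agree).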

How the results depend on the processing

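Of the 75 named genes, 58 passed and 0 of these changed direction under the alternatives run. Of the 17 that did not pass, 7 changed sign under at least 1 alternative (Egr1, Lifr, Il6st, Tnfrsf11b, Sp7, Klf2 and Oasl2), with values between −0.47 and 0.31. Without the culture term (replicate block) the calls were 86 for the LIFR ligands, 50 for hOSM, 67 for mLIF, 0 for mOSM minus LIFR ligands and 16 for the time difference, and 25 named calls were lost, each given with its gene or, for the histone genes, as a count. With the culture as a random effect, the calls were 2 for mOSM minus LIFR ligands and 139 for time. With the beadchip term they were 92 for mLIF and 2 for mOSM minus LIFR ligands, and 6 named calls were lost. For mOSM minus LIFR ligands the count was 0 with only the compared groups in the fit, 8 without background correction and 1 without the detection filter. With median scaling the time difference had 98 calls, and 91.0% of the LIFR ligand calls were higher, against 81.0% in the main result (hOSM 94.7% against 84.0%). Over the 21 alternatives, with samples left out included, the named calls lost most often were Il4ra (14), Id3 (13), H2ac11 and Zfp157 (11 each), Hspa1a (10), Per1 (9) and Nr1d1 (8).

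Leaving out arrays or cultures gave 94 to 210 calls for the LIFR ligands, 52 to 136 for hOSM, 59 to 141 for mLIF, 0 to 7 for mOSM minus LIFR ligands and 21 to 217 for time, and 0 throughout for hOSM minus mLIF and for genotype. The lowest counts came without replicate 1. Single arrays that moved a count by over 1.5 times were control replicate 3 (132 for the LIFR ligands, 121 for mLIF), hOSM replicate 3 (98) and control replicate 2 (102) for hOSM, mLIF replicate 3 (113) for mLIF, and control replicates 2 and 3 at 6 h (143 and 119) and control replicate 1 at 1 h (129) for time. For mOSM minus LIFR ligands, any mOSM array, and replicates 1 and 3 of hOSM and of mLIF, left 1 or 2 calls. Fewer samples were fitted in these cases; otherwise the cause was not tested. With 3 control arrays, all comparisons with control rest on few values, and a low signal near background gives only a bound.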

Other observations

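The core histone cluster genes, which were chosen after their values were seen, had a median difference below 0 in the other settings too. Of the 39 genes, 32 were negative in Osmr-null cells at 1 h (82.1%, against 55.8% of all genes), with a median of −0.20, and 0 fell. In WT cells at 6 h 33 were negative (84.6%, against 54.5% of all genes), with a median of −0.25. In WT at 1 h it was −0.33, −0.48 and −0.26 in replicates 1, 2 and 3.

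Of the 3 measured Pde4 genes, the time difference passed for Pde4a and Pde4b. Pde4a, like Pde4b, had a smaller effect at 6 h, with 1.86 at 1 h and −0.23 at 6 h (difference −2.09 ± 0.36, limma adjusted p = 0.00068), and in Osmr-null cells at 1 h it had 2.81. Pde4d had −0.36 at 1 h and 0.03 at 6 h (difference 0.40 ± 0.27, adjusted p = 0.59).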
